A study of Mus musculus with 8 samples.

Results

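The calcitonin receptor family was followed in muscle stem cells as 5 genes chosen by symbol: the receptors Calcr and Calcrl and the receptor activity-modifying proteins (RAMPs) Ramp1, Ramp2 and Ramp3. These are 5 of the 45706 gene lines used, and 4 of the 5 passed the filter on low counts and were tested. Expression was measured by RNA-seq in α7-integrin+ CD34+ cells sorted from hindlimb muscle of wild-type C57BL/6 females of 8 to 12 weeks, after removal of cells with CD45, Sca1, CD31 or CD11b. The fresh group held 5 libraries made straight after sorting, and the cultured group held 3 libraries from cells kept for 48 h on a 12 kPa hydrogel. The labels list 1 growth medium with 20% fetal bovine serum for every library. Fresh replicates 1 to 3 were sequenced on their own (run 1), while fresh replicates 4 and 5 and all cultured replicates shared a lane (run 2). The fresh cells had been taken out of the tissue and sorted, so they stand for freshly isolated cells and not for cells in place, and the single time and gel give no course. The labels name no animal or culture per library. The p-values below therefore measure the spread between these libraries, which may be technical.

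The calcitonin receptor and the calcitonin receptor-like receptor are class B G protein-coupled receptors, which bind peptide hormones and mainly couple to the stimulatory G protein that raises cAMP. A RAMP is a small membrane partner that sets which peptide a receptor prefers: the calcitonin receptor binds calcitonin by itself and amylin with a RAMP, and the receptor-like protein needs a RAMP to reach the surface, as a CGRP receptor with RAMP1 and an adrenomedullin receptor with RAMP2 or RAMP3. In muscle, the calcitonin receptor is known as a surface marker of quiescent adult stem cells, where collagen V made by the cells has been described as a ligand downstream of Notch, and protein kinase A and the Hippo kinases have been described as acting downstream of the receptor. The receptor-like protein with RAMP2 is best known from blood and lymphatic endothelium.

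Calcr (ENSMUSG00000023964) lies at chr6:3685680-3764714 on the minus strand and Calcrl (ENSMUSG00000059588) at chr2:84330626-84425411, also on the minus strand, in mouse build GRCm38 (mm10; GENCODE M21). RefSeq (GRCm38.p6) places 2 start sites for Calcr and 1 for Calcrl, and the bases before them are shown because these are the regions from which the receptor transcripts begin. The upper Calcr stretch, chr6:3763631-3763873, lies inside the annotated gene, the lower one, chr6:3764715-3764963, ends at the outermost start, and the Calcrl stretch is chr2:84425412-84425516. All are written 5′ to 3′ on the minus strand, without annotated exon bases. Capitals mark TGACG, the core of the cAMP response element, and GGGCGG, the GC box, on either strand.
Calcr, inner start: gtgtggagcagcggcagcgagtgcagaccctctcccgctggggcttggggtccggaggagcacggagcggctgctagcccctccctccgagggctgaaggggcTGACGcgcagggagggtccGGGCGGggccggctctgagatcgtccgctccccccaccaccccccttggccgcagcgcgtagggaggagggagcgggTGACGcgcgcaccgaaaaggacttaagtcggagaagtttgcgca
Calcr, outer start: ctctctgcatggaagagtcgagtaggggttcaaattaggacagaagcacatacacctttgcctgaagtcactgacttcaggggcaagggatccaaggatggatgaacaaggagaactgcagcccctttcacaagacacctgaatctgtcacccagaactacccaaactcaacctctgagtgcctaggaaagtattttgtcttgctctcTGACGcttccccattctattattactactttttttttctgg
Calcrl: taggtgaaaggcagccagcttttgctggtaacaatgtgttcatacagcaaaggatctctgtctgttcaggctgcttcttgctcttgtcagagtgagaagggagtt

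The inner Calcr stretch was rich in G and C (71.2%), whereas the outer one (46.2%) and that of Calcrl (46.7%) were not. In the 250 bases before each start, TGACG was found at 147 and 51 bases before the inner Calcr start and at 42 bases before the outer one, and 17.8% of the 32851 RefSeq windows of that length held it. The GC box, held by 32.7% of the windows, stood once before the inner Calcr start, once before the Calcrl start in bases annotated as exon and not shown, and at 78, 35 and 24 bases before the Ramp3 start. GTGGGAA, a motif bound by the Notch partner RBPJ, was found once in the family, 146 bases before the Ramp1 start, against 5.42% of all windows. The full element TGACGTCA (1.55% of windows) and the E-box CAGCTG (13.0%) were in none of the 5 windows of Calcr, Calcrl, Ramp1 and Ramp3. These are matches of letters and not measured binding sites, and the gene counts do not tell which start was used.

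The libraries held 13919440 to 20068154 counts. At least 1 count was seen for 32710 to 34689 genes in run-1 fresh, 20480 to 20898 in run-2 fresh and 15415 to 17852 in cultured libraries, so the runs differ in how many rare transcripts they show. Levels are CPM, the count for every 1000000 counts of the TMM-scaled library size, and 3 counts, taken as the detection floor, equal 0.153 to 0.200 CPM per library. The 10 markers of muscle stem cells summed to 4909 to 6412 CPM in fresh and 1066 to 1186 CPM in cultured libraries, and none was at 0 throughout a group. Of 19054 genes tested, 26.9% were called between cultured and fresh cells (edgeR quasi-likelihood test, adjusted p under 0.05), 18.0% lower and 8.87% higher in culture. In 26.1% every cultured library lay below every fresh one. Without scaling factors 53.8% of the called genes were lower, against 67.0% with them, and the median log2 fold change of all genes was 0.03 instead of -0.21. Between fresh libraries of the 2 runs, 0.189% of genes were called.

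Of the family, Calcr, Calcrl and Ramp2 were called, all lower in culture, and Ramp1 was not. Calcr, Calcrl and Ramp1 passed the filter on low counts mainly or wholly through the fresh libraries, whereas Ramp2 held 51 to 207 counts in the cultured ones. The number of called members thus supports nothing about the family as a whole.

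Calcr, the receptor for calcitonin, had the largest fold change among the called members. Its level in fresh replicates 1 to 5 was 95.2, 66.6, 102, 304 and 313 CPM. In cultured replicates 1 to 3 it was 0, 3.24 and 1.12 CPM, from 0, 63 and 22 counts. Every cultured library lay far below every fresh one, with the highest cultured value at 0.0486 of the lowest fresh value. The mean was 176 ± 122 CPM (SD, n = 5) before and 1.45 ± 1.65 CPM (SD, n = 3) after culture, a 121-fold ratio of means. The log2 fold change of cultured against run-2 fresh cells was -7.72 ± 1.13 (SE; adjusted p = 0.00210, edgeR quasi-likelihood test). In whole sorted populations, fewer cells of a type and less RNA per cell cannot be told apart.

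Within the fresh group Calcr fell into the 2 runs. The mean was 87.8 ± 18.6 CPM in run 1 (n = 3) and 308 ± 6.02 CPM in run 2 (n = 2), a 3.51-fold ratio, and the values of the runs did not overlap. The run difference was 1.81 ± 0.90 on the log2 scale and did not pass the test (adjusted p = 0.402, edgeR quasi-likelihood test). Run 2 of the fresh cells stood 212-fold above the cultured mean, and run 1 stood 60.4-fold above it. Against run-1 fresh libraries the log2 fold change in culture was -5.81. Without cultured replicate 2, which held most of the cultured counts, it was -9.07. No library in culture reached the counting interval of any fresh library: cultured replicate 2 had a 95% Poisson interval of 2.49 to 4.15 CPM, and fresh replicate 2, the lowest fresh library, one of 62.6 to 70.9 CPM. For the 0 counts of cultured replicate 1 the same interval reaches up to 0.194 CPM. These limits cover counting error only.

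Calcrl, the receptor that forms CGRP and adrenomedullin receptors with RAMPs, also fell. Fresh replicates 1 to 5 held 30.7, 39.5, 53.3, 33.2 and 54.0 CPM, and cultured replicates 1 to 3 held 0, 3.65 and 0.357 CPM. The groups did not overlap, and cultured replicate 2 was the highest cultured library for both receptors, with 71 of the Calcrl counts. The mean fell from 42.1 ± 11.0 CPM (SD, n = 5) to 1.34 ± 2.01 CPM (SD, n = 3), and the log2 fold change was -5.02 ± 1.34 (SE; adjusted p = 0.0240, edgeR quasi-likelihood test). The Calcrl values of both runs of fresh cells overlapped, with a run difference of 0.08 ± 1.21 on the log2 scale (adjusted p = 0.995, edgeR quasi-likelihood test). The test of Calcrl rests on few libraries: its adjusted p was 0.111 within run 2 alone and 0.0504 to 0.101 without any one of fresh replicates 1, 3, 4 and 5 or cultured replicate 3. Without cultured replicate 2 the log2 fold change was -7.86.

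**Figure D1:**
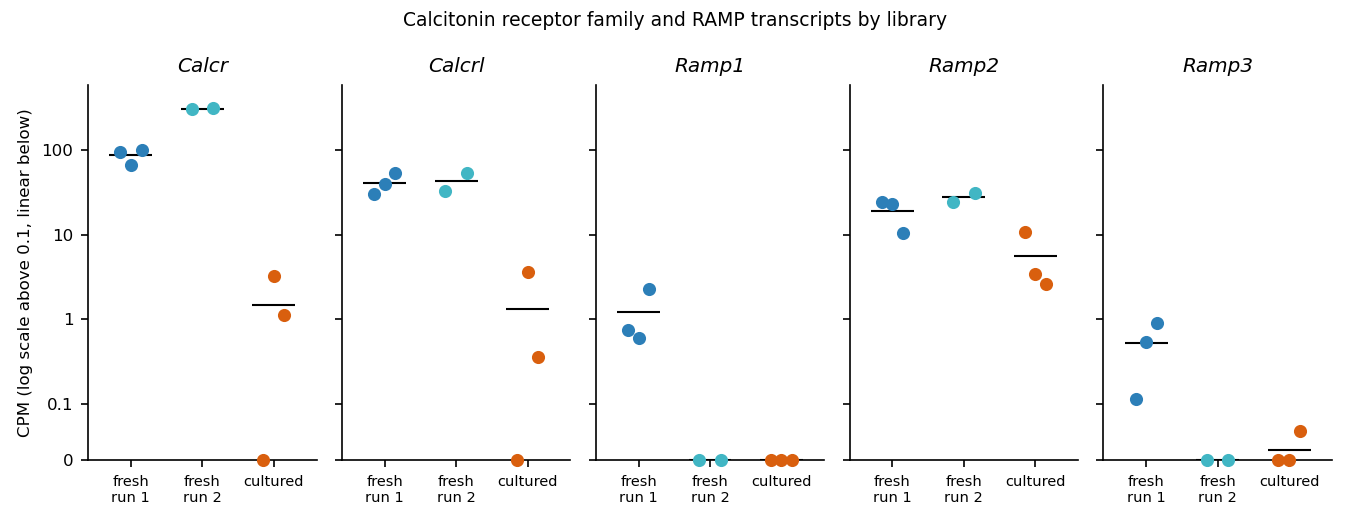
Level of each family member in every library, in CPM on an axis that is logarithmic above 0.1 and linear below it; points are libraries and short lines are means of fresh run 1 (n = 3), fresh run 2 (n = 2) and cultured cells (n = 3). Calcr and Calcrl lie far lower in all cultured libraries, cultured replicate 1 of Ramp2 (10.9 CPM) lies beside fresh replicate 3 (10.4 CPM), and Ramp1 and Ramp3 have counts mainly in fresh run 1.

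Ramp2 (ENSMUSG00000001240), the adrenomedullin-type partner of Calcrl, lies at chr11:101246028-101259546 on the plus strand and was the most abundant RAMP. Its fresh values were 24.6, 23.0, 10.4, 24.2 and 31.3 CPM, and its cultured values were 10.9, 3.40 and 2.60 CPM. The groups overlapped, since cultured replicate 1 lay at 1.05 times fresh replicate 3, while the other two cultured libraries lay below all fresh ones. The mean was 22.7 ± 7.60 CPM (SD, n = 5) before and 5.63 ± 4.58 CPM (SD, n = 3) after culture, and Ramp2 fell by 2.30 ± 0.72 on the log2 scale (SE; adjusted p = 0.0452, edgeR quasi-likelihood test). This call is near the threshold and was lost in 12 of 17 alternatives, among them run 2 alone (adjusted p = 0.149) and leaving out any single library except cultured replicate 1. Without that library the log2 fold change was -3.15 (adjusted p = 0.00440, edgeR quasi-likelihood test). The exons of Ramp2 share 1103 of 3301 bases with those of its neighbour Vps25, a gene of endosomal sorting chosen here after its values were seen, so reads in them can be divided between both genes. Vps25 had a mean of 20.5 ± 7.58 CPM in the fresh group (25.3 in run 1 and 13.4 in run 2) and 31.2 ± 7.85 CPM in the cultured one. Its log2 fold change was 1.22 ± 0.44 against run-2 fresh libraries (adjusted p = 0.0699, edgeR quasi-likelihood test) and 0.37 against run-1 ones. Vps25 was called higher in 4 of 17 alternatives, among them no scaling (1.63, adjusted p = 0.0290, edgeR quasi-likelihood test) and DESeq2's Wald test (1.16, adjusted p = 0.00901). Its part in the Ramp2 values was not tested.

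Ramp1 (ENSMUSG00000034353), which makes the CGRP receptor with Calcrl, was rare and was seen in run 1 alone. It lies at chr1:91179822-91225196 on the plus strand. Counts were 13, 9 and 38 in fresh replicates 1 to 3, or 0.741, 0.601 and 2.28 CPM, and 0 in both run-2 fresh libraries and in all 3 cultured ones. As both groups of run 2 were at 0, the culture coefficient was 0 (adjusted p = 1, edgeR quasi-likelihood test). Run-1 fresh cells stood at least 23.3-fold above the cultured and at least 12.5-fold above the run-2 fresh libraries, each against 3 counts over that group. Against run-1 fresh libraries Ramp1 passed the test (adjusted p = 0.00657, edgeR quasi-likelihood test). That comparison differs in run as well as in culture. Ramp1 also passed the filter on low counts through run-1 libraries alone, so this pass cannot show a change in culture. The difference between the runs did not pass (adjusted p = 0.0757, edgeR quasi-likelihood test). Counts were thus seen in 1 run of fresh cells alone, and within run 2 a change in culture below the floor was not detectable. Without fresh replicate 3, which held 38 of the run-1 counts, these bounds were at least 13.0-fold and at least 6.97-fold.

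Ramp3 (ENSMUSG00000041046), the other adrenomedullin-type partner, lies at chr11:6658521-6677475 on the plus strand and did not pass the filter on low counts. Fresh replicates 1 to 3 held 2, 8 and 15 counts, or 0.114, 0.534 and 0.900 CPM. The run-2 fresh libraries held 0, and the cultured libraries held 0, 0 and 1 count. Fitted with no filter, Ramp3 was not called for culture (adjusted p = 0.817) or for run (adjusted p = 0.127, edgeR quasi-likelihood test over 39212 genes). Its exons share 101 bases with the antisense pseudogene Gm11978, chosen here after its values were seen, which held 10 counts in all, and how strand was used in counting is not stated in the labels.

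Levels were set side by side between genes as CPM per kb of annotated exon. For Ramp2 all 3301 exon bases were used, of which 1103 are shared with Vps25. In fresh cells Calcr stood first with 45.0 ± 31.1 (SD, n = 5, here and for the other members), followed by Calcrl with 8.63 ± 2.25, Ramp2 with 6.87 ± 2.30, Ramp1 with 0.240 ± 0.309 and Ramp3 with 0.224 ± 0.287 CPM per kb. Calcr exceeded Calcrl in each fresh library, by 2.11-fold (fresh replicate 2) to 11.4-fold (fresh replicate 4). Calcrl and Ramp2 differed by less than their spread, as did Ramp1 and Ramp3. Calcr made up 67.8 to 91.9% of the receptor transcripts per kb in fresh libraries, and Ramp2 made up 69.1 to 100% of those of the RAMPs.

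In culture the order per kb began with Ramp2, at 1.71 ± 1.39 CPM per kb (SD, n = 3), before Calcr at 0.372 ± 0.421 and Calcrl at 0.274 ± 0.413. Neighbours in this order differed by less than the larger of their SDs. In fresh libraries the RAMPs summed to 0.0867 to 0.300 of the receptors per kb. This ratio was 0.652 and 2.29 in cultured replicates 2 and 3, and in cultured replicate 1 no receptor count was left to divide by while Ramp2 was at 3.30 CPM per kb. RAMP transcripts were thus higher relative to receptor transcripts in each cultured library than in any fresh one, which is a ratio of levels and was given no test. Ramp2 made up most of the RAMP sum, so the bases it shares with Vps25 enter this ratio, and their part was not tested.

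**Figure D2:**
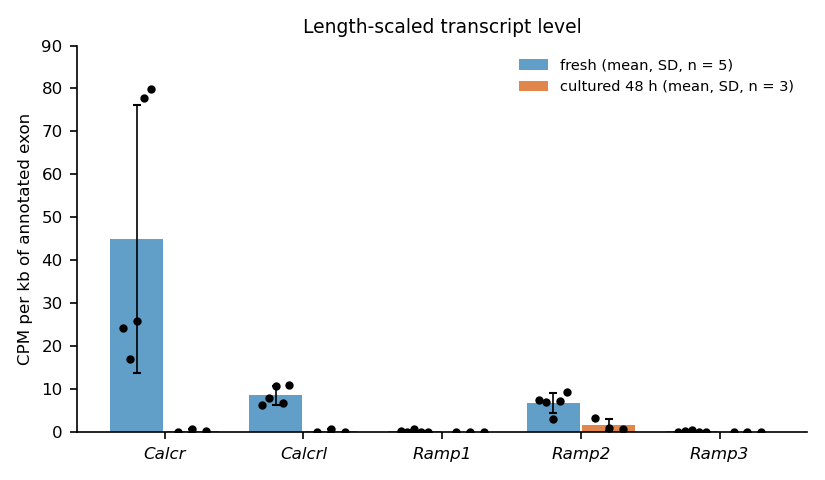
Level of the 5 members in CPM per kb of annotated exon, on a linear axis; bars are means, error bars SD and points single libraries (fresh n = 5, cultured n = 3). Calcr leads in fresh cells with a wide spread (45.0 ± 31.1), and in cultured cells Ramp2 (1.71 ± 1.39) has the highest bar.

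Transcripts of the peptides that bind these receptors were sparse. Calca, which encodes both calcitonin and α-CGRP, held 1.14, 0.668, 0.780, 3.29 and 0.456 CPM in fresh replicates 1 to 5 and 0 counts in all cultured libraries. It was called lower in culture (adjusted p = 0.00852, edgeR quasi-likelihood test), but it had passed the filter on low counts through the fresh libraries alone. Against 3 counts over the cultured libraries, its fresh mean was at least 24.5-fold higher, and without fresh replicate 4, which stood apart, at least 14.7-fold. The call was lost in run 2 alone (adjusted p = 0.0994). Adm, which encodes adrenomedullin, had a mean of 4.12 ± 1.07 CPM in the fresh group and 5.05 ± 1.13 CPM in the cultured one, with overlapping values and a log2 fold change of 0.57 ± 0.80 that did not pass the test (adjusted p = 0.644, edgeR quasi-likelihood test). Adm2 (intermedin) and Iapp (amylin) had at most 0.540 and 0.200 CPM in any library and were not tested, and Calcb (β-CGRP) had no count.

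Of the other 4 tested genes that handle these peptides or aid their receptors, Ackr3 and Mme fell. Ackr3, an atypical receptor that binds adrenomedullin and CXCL12, went from 239 ± 32.2 to 38.1 ± 19.5 CPM, a log2 fold change of -2.75 ± 0.45 (adjusted p = 0.00354, edgeR quasi-likelihood test), and no cultured library reached the fresh ones. Mme, the peptide-cleaving enzyme neprilysin, had 3.85 to 13.6 CPM in fresh libraries and 1 count in all cultured ones (adjusted p = 0.00438, and 0.0517 in run 2 alone). Crcp, named for its role as a component that couples the CGRP receptor and also a subunit of RNA polymerase III, rose from 11.6 ± 2.63 to 43.0 ± 25.7 CPM (2.06 ± 0.61 on the log2 scale, adjusted p = 0.0357), with all cultured libraries above all fresh ones. Its adjusted p was 0.0556 to 0.180 in 8 of 17 alternatives that ended the call, 6 of which left out a single library (fresh replicates 1 to 5 or cultured replicate 3). Ide, the insulin-degrading enzyme, which also cleaves amylin, stood at 64.5 ± 17.9 and 152 ± 44.6 CPM and did not pass the test (adjusted p = 0.0669, edgeR quasi-likelihood test). It did pass in 5 of 17 alternatives (edgeR quasi-likelihood test). These included run-1 fresh libraries (adjusted p = 0.00510), which differ from the cultured ones in run too. With the run term kept, it passed with no scaling (1.25, adjusted p = 0.0136) and without cultured replicate 3 (1.08, adjusted p = 0.0148). In all, 1 of 6 tested genes of the list of ligands and accessory proteins rose and 3 fell, with a median log2 fold change of -1.09. Among all genes tested 8.87% rose and 18.0% fell, with a median of -0.21, and the counts and medians of the lists that follow are to be read beside these.

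Among 15 tested genes for G protein subunits 1 rose and 3 fell, while 11 were not called, with a median log2 fold change of -0.33. Gnas, which encodes the stimulatory α subunit that couples class B receptors to adenylyl cyclase, held 1849, 1841, 1154, 1221 and 1281 CPM in fresh and 476, 310 and 264 CPM in cultured libraries. All cultured values lay below all fresh ones, and the log2 fold change was -1.84 ± 0.31 (adjusted p = 0.00384, edgeR quasi-likelihood test). Its locus makes several transcripts that a gene count adds together. Gnaq, the α subunit of the phospholipase C pathway, fell from 96.8 ± 13.6 to 26.8 ± 12.3 CPM, and the γ subunit Gng11 fell from 15.9 ± 12.3 to 0.136 ± 0.235 CPM, from counts in cultured replicate 3 alone. Gnb1, a β subunit, rose from 205 ± 41.5 to 370 ± 37.0 CPM. The Gnaq call was lost without fresh replicate 4 (adjusted p = 0.0533, edgeR quasi-likelihood test) and in run 2 alone (0.0517).

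Among 21 genes that act below cAMP 1 rose and 5 fell, while 15 were not called, with a median of -1.53. Crtc3 and Crtc2, coactivators of the cAMP-responsive factor CREB, fell from 156 ± 29.1 to 22.1 ± 6.67 CPM (log2 fold change -2.82 ± 0.34, adjusted p = 0.000915) and from 80.5 ± 11.4 to 24.2 ± 13.0 CPM (-1.53 ± 0.42, adjusted p = 0.0257, edgeR quasi-likelihood test). The Crtc2 call was lost in 7 of 17 alternatives, among them no scaling (-1.08, adjusted p = 0.108) and leaving out any one of fresh replicates 1, 2, 4 and 5 or cultured replicate 3. Akap12, which anchors protein kinase A, fell from 153 ± 29.4 to 37.6 ± 17.0 CPM. Prkar2a, a regulatory subunit of that kinase, rose from 52.8 ± 9.85 to 140 ± 39.1 CPM, a call lost without fresh replicate 5 (adjusted p = 0.0818) and in run 2 alone (0.0544). The other two that fell, Rapgef3, a cAMP-activated exchange factor, and Pkib, an inhibitor of protein kinase A, named here after their values were seen, had at most 4.47 and 8.46 CPM in any library. Both calls were lost in run 2 alone (adjusted p = 0.0818 and 0.0925), and that of Pkib also without fresh replicate 4 (0.0811). The catalytic subunit gene Prkaca (fold change 0.43 ± 1.20 on the log2 scale, adjusted p = 0.845) and Creb1 (-0.69 ± 0.32, adjusted p = 0.140), also named after their values were seen, did not pass the test. Without cultured replicate 1, which held 0.474 CPM against 39.1 and 58.1 CPM in the other two, Prkaca passed as higher (1.06, adjusted p = 0.0487, edgeR quasi-likelihood test).

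Of 10 tested genes that switch off or internalise such receptors, 3 fell and 7 did not pass the test, with a median of -1.0. Arrb1, which encodes β-arrestin 1, held 78.3, 76.1, 58.4, 64.6 and 48.5 CPM in fresh libraries and 0, 0.206 and 0 CPM in cultured ones. The groups were far apart, at a log2 fold change of -9.54 ± 0.91 (adjusted p = 0.000312, edgeR quasi-likelihood test), and at -12.91 without cultured replicate 2, the only cultured library with a count. Its relative Arrb2, named after its values were seen, stood at 6.84 to 11.9 CPM in fresh and at 10.1, 0.669 and 13.3 CPM in cultured libraries and did not pass the test (adjusted p = 0.920). Rgs2, a regulator that shortens G protein signals, fell from 71.8 ± 13.4 to 2.10 ± 1.93 CPM (-5.35 ± 0.95, adjusted p = 0.00491, edgeR quasi-likelihood test; -6.18 without cultured replicate 2 and -4.73 without cultured replicate 1). The third was Grk4, a receptor kinase at 2.96 to 6.71 CPM in fresh cells, named after its values were seen, whose call was lost in run 2 alone (adjusted p = 0.0984).

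Among 13 other class B receptor genes 6 were tested, of which 3 fell and none rose, with a median log2 fold change of -3.16. Vipr2, a receptor for vasoactive intestinal peptide, went from 8.17 ± 5.38 to 0.292 ± 0.505 CPM (adjusted p = 0.0444, edgeR quasi-likelihood test), a call lost in 10 of 17 alternatives, including no scaling (0.0594) and the omission of any one fresh library (0.0795 to 0.139) or of cultured replicate 3 (0.0511). Its log2 fold change of -5.50 became -10.85 without cultured replicate 2. Vipr1 and Pth1r, the parathyroid hormone receptor, named after their values were seen, fell from at most 3.26 and 1.87 CPM. Both calls were lost in run 2 alone (adjusted p = 0.138 and 0.169) and without fresh replicate 3 (0.0573 and 0.0507), and that of Vipr1 also without fresh replicate 1 (0.0564) or 5 (0.225). Adcyap1r1, the receptor for the peptide PACAP, also named after its values were seen, stood at 9.32 to 33.3 CPM in fresh and 11.2 to 21.7 CPM in cultured libraries and did not pass the test (log2 fold change -0.12 ± 0.55, adjusted p = 0.918). Its groups overlapped, unlike those of Calcr and Calcrl.

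Of the 10 genes of collagen V and Notch, 7 fell and 3 did not pass the test, with a median of -3.83, beside 18.0% lower among all genes tested. Col5a1, the α1 chain of collagen V, named after its values were seen, held 220, 190, 161, 234 and 291 CPM in fresh and 35.2, 0.926 and 2.75 CPM in cultured libraries (log2 fold change -4.34 ± 1.18, adjusted p = 0.0258, edgeR quasi-likelihood test). Without cultured replicate 1, the highest, its fold change was -7.10, and its call was lost in run 2 alone (0.0869) and without fresh replicate 1, 4 or 5 (0.0503, 0.0677 and 0.0830). Col5a3, the α3 chain, fell from 80.0 ± 20.7 to 1.89 ± 2.92 CPM (-5.67 ± 1.35, adjusted p = 0.0148), a call lost without fresh replicate 4 (0.0593) and in run 2 alone (0.0738). The fold change of Col5a3 was -8.79 without cultured replicate 3. Col5a2, the α2 chain, also named after its values were seen, stood at 56.7 to 141 CPM in fresh and 108 to 212 CPM in cultured libraries and did not pass the test (0.12 ± 0.32, adjusted p = 0.836). It was higher against run-1 fresh libraries (1.35, adjusted p = 0.0124), which differ from the cultured ones in run too.

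The Notch receptor and target genes Notch3, Heyl and Hey1 fell. Notch3 went from 391 ± 84.1 to 15.1 ± 10.9 CPM (-4.61 ± 0.59, adjusted p = 0.00117, edgeR quasi-likelihood test). Heyl, a transcriptional target of Notch, held 817, 736, 547, 773 and 577 CPM in fresh and 3.27, 0.0515 and 0.408 CPM in cultured libraries, with no overlap (-9.08 ± 1.13, adjusted p = 0.00106, and -11.42 without cultured replicate 1). Hey1, another target, fell from 144 ± 36.8 to 1.90 ± 1.69 CPM (-6.37 ± 0.84, adjusted p = 0.00131). Without cultured replicate 1, Hey1 was at -7.19 and Notch3 at -5.26. The receptor Notch1, named after its values were seen, did not pass the test (adjusted p = 0.992). It stood at 98.3 to 189 CPM in fresh and at 36.7, 68.6 and 424 CPM in cultured libraries, and without cultured replicate 3 it was called lower (-1.65, adjusted p = 0.0173, edgeR quasi-likelihood test).

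Of 17 tested Hippo and YAP genes, 4 rose, 2 fell and 11 did not pass the test, with a median of 0.10. The kinase genes Lats1 and Lats2 and the effector Yap1, named after their values were seen, did not pass (adjusted p = 0.134, 0.795 and 0.341, edgeR quasi-likelihood test). Lats1 passed as higher without scaling factors (0.97, adjusted p = 0.0156), and Yap1 as lower without cultured replicate 1 (-0.93, adjusted p = 0.0464). Known YAP targets went both ways: Ctgf fell from 388 ± 87.4 to 30.5 ± 7.18 CPM (-3.81 ± 0.31, adjusted p = 0.000170), and Ankrd1 rose from 119 ± 9.15 to 933 ± 88.4 CPM (2.90 ± 0.22, adjusted p = 0.000133). Stk4, the upstream kinase MST1, rose from 26.7 ± 6.09 to 94.9 ± 43.9 CPM, a call lost without fresh replicate 5 (adjusted p = 0.0993) and in run 2 alone (0.0602). Tead4, a DNA-binding partner of YAP, was called higher (adjusted p = 0.0397), but its cultured values of 40.3, 1.75 and 0.357 CPM overlapped the fresh range of 0 to 1.94 CPM. The Tead4 call was lost in 8 of 17 alternatives, among them run 2 alone (0.103), run-1 fresh libraries (3.91, adjusted p = 0.116) and leaving out any one fresh library (0.0586 to 0.153). With both run-2 fresh libraries at 0, its fitted fold change is no measure of size and ran from 1.58 to 11.45 over the alternatives.

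**Figure D3:**
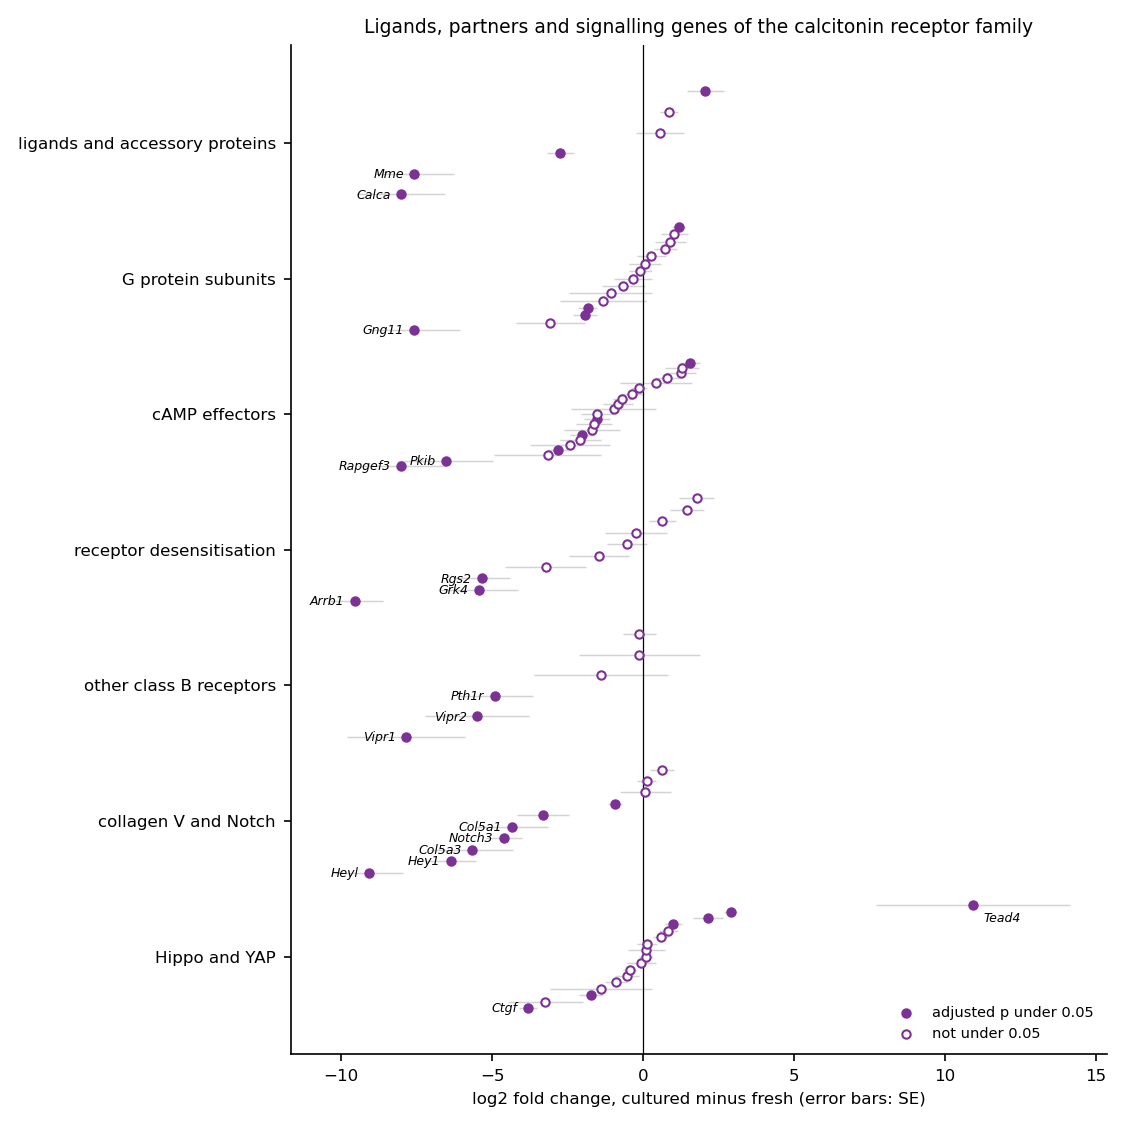
Log2 fold change in culture with its SE for the 85 tested genes of 7 lists of ligands, partners and signalling genes; filled points passed the test (edgeR quasi-likelihood test, adjusted p under 0.05), and called genes beyond 3.5 on the log2 scale carry their name. Of the 85 genes 26 lay lower and 7 higher with a call, and the list of collagen V and Notch had 7 of 10 called lower.

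Over all 7 lists, 33 of 85 tested genes were called, 26 of them lower and 7 higher, beside 26.9% called, 18.0% lower and 8.87% higher among all genes tested. The share of the higher calls moved with the scaling, since 15 genes were called higher and 22 lower without scaling factors. Genes at or near 0 in culture, such as Calca, Mme and Arrb1, passed the filter on low counts through the fresh libraries alone. The lists were chosen with earlier results of these data known and share this comparison with the receptors, so their counts describe the family's surroundings and lend it no further support.

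Calcr also hosts Mir489, the hairpin of a microRNA known from quiescent muscle stem cells, in an intron at chr6:3721897-3722003. Its mature 3′ strand is shown because it is carried by the Calcr primary transcript, with the seed (bases 2 to 8) in capitals, from RefSeq.
mmu-miR-489-3p: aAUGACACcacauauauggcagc

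The hairpin, counted as a gene, held 1, 1, 2, 2 and 1 counts in fresh replicates 1 to 5 and 0 in each cultured library. Every value is under the floor of 3 counts, so no difference was detectable at this depth, and libraries of this kind do not measure the mature strand. Dek, a known target of this microRNA, chosen after its values were seen, held 81.1, 63.0, 142, 221 and 218 CPM in fresh and 531, 355 and 372 CPM in cultured libraries. The groups did not overlap, but the log2 fold change of 0.93 ± 0.36 did not pass the test (adjusted p = 0.0885, edgeR quasi-likelihood test). Against run-1 fresh libraries it was 2.19 (adjusted p = 0.00505, edgeR quasi-likelihood test), a comparison that also differs in run. In all, Dek was called higher in 5 of 17 alternatives (edgeR quasi-likelihood test). Of those with the run term kept, no scaling gave 1.32 (adjusted p = 0.0166) and leaving out fresh replicate 3 gave 0.93 (adjusted p = 0.0430). The fresh mean of Dek was 95.3 CPM in run 1 and 219 CPM in run 2.

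The genes whose log2 CPM ran most like that of a member over the 8 libraries were sought among 7815 genes with a mean of at least 10 CPM. For Calcr these were Ptprd, a receptor phosphatase (Pearson r = 0.998), the histone methyltransferase Kmt2c (0.996) and Dio2, the enzyme that activates thyroid hormone (0.995). Like Calcr, all 3 were higher in run 2 than in run 1 of the fresh cells, as with Dio2 at 60.7 CPM in run 1, 109 CPM in run 2 and 1.99 CPM in culture. For Calcrl they were Hoxc6 (0.998), Dgka (0.996) and Dnmbp (0.994), and for Ramp2 they were Rgma (0.996), Rgmb (0.978) and Lrrc45 (0.978). For Ramp1, seen in run 1 alone, they were Muc4 (0.964), Nxf1 (0.946) and Slco2a1 (0.917), and Muc4 had the same layout of 32.0 CPM in run 1 and 0 in run 2 of both groups. These values describe 8 libraries that share the split between groups and runs, and over the 5 fresh libraries alone r was 0.953 for Ptprd with Calcr and 0.484 for Dnmbp with Calcrl.

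Most marker lists of other cell types moved with the same comparison. The 12 endothelial markers, a cell type known for Calcrl and Ramp2, summed to 107 to 154 CPM in fresh and 12.5 to 51.5 CPM in cultured libraries. The largest part of the fresh sum was Tek (52.8 to 88.8 CPM), whereas Kdr, Tie1, Egfl7 and Cldn5, other defining markers, had at most 3.48 CPM in any fresh library and at 0 in all cultured ones. The sums of cultured replicates 1 and 3 were mostly Pecam1, which stood at 35.1, 0.103 and 38.1 CPM in cultured replicates 1 to 3. Of the 5 lymphatic markers, all tested, 2 were called lower and 1 higher in culture. Their sum was 942 to 1016 CPM in fresh and 384 to 529 CPM in cultured libraries. Prox1, which was at 655 to 823 CPM in fresh cells, made up most of the fresh sum, while Lyve1 and Flt4 had at most 2.22 CPM.

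Markers of pericytes and smooth muscle summed to 472 CPM in fresh replicate 1, to 1675 to 2735 CPM in the other fresh libraries and to 36.1 to 130 CPM in culture. Schwann cell markers ran from 79.8 to 866 CPM in fresh libraries and from 0.0527 to 3.82 CPM in culture. Fibro-adipogenic markers summed to 759 to 1228 and 11.3 to 30.8 CPM, and blood markers to 27.4 to 75.4 and 0.357 to 7.41 CPM. Markers of muscle fibres summed to 29.1 to 32.7 CPM in fresh and 18.2 to 77.6 CPM in cultured libraries. Of the tested markers, those called lower in culture were 6 of 10 for pericytes, 7 of 7 for Schwann cells and 7 of 9 fibro-adipogenic. For blood they were 3 of 7, for endothelium 3 of 9 and for muscle fibres 2 of 8, beside 18.0% lower among all genes tested. Of the muscle stem cell markers themselves, 8 of 10 were also called lower, with a median log2 fold change of -3.09. Fresh replicate 1, with the lowest pericyte and Schwann sums of the fresh libraries, also held the lowest fresh value of Calcrl (30.7 CPM). Fresh replicate 4, with a pericyte sum of 1796 CPM, was close to it at 33.2 CPM. Fresh replicate 2, with the highest pericyte and Schwann sums (2735 and 866 CPM), held 39.5 CPM of Calcrl, below fresh replicates 3 and 5 (53.3 and 54.0 CPM). In fresh replicate 1, Calcr and Ramp2, at 95.2 and 24.6 CPM, lay within the range of the other fresh libraries, and Calcr differed more between the runs. The part of these cell types in the members' fall was not tested.

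**Figure D4:**
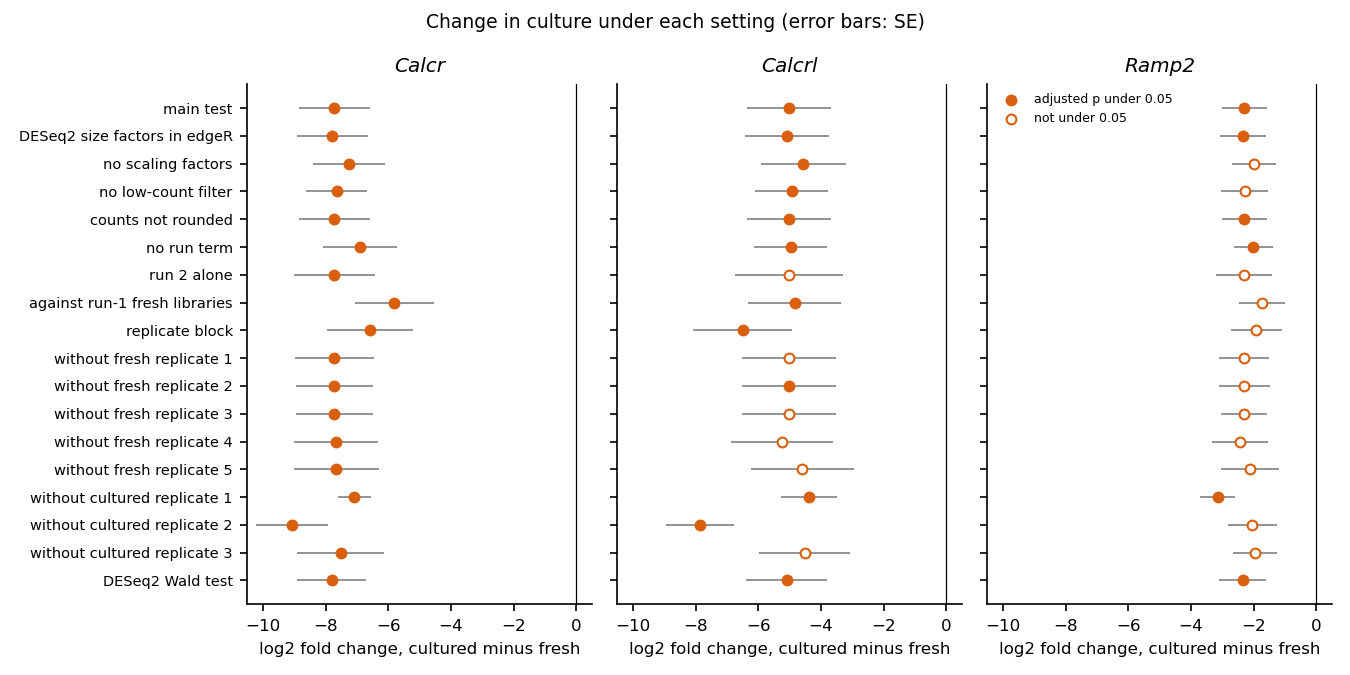
Log2 fold change in culture with its SE (x axis) of Calcr, Calcrl and Ramp2 under the main test and 17 alternatives (y axis), filled where the adjusted p was under 0.05. All values lie below 0; Calcr is called in all 17 alternatives (-9.07 to -5.81), Calcrl in 11 and Ramp2 in 5.

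The 3 called members differed in how far their calls held. Calcr stayed lower with an adjusted p of 3.75e-11 to 0.0241 over all 17 alternatives, Calcrl was below 0 in all of them with 6 calls lost, and Ramp2 was below 0 in all of them with 12 calls lost.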

How the data were processed

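RNA was amplified as cDNA (NuGEN Ovation) and made into Illumina libraries, per the labels' protocols. All 8 libraries are in 1 table of expected counts deposited by the authors. STAR, RSEM and mm10 stand in the submitters' processing notes; no version or annotation release is given in the sources used here. RSEM divides reads that fit several genes. Of the values above 0, 50.1% were not whole, and all were rounded. After removal of 92 spike-in lines the table had 45706 lines, 2423 of them without a gene identifier.

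Genes were kept by filterByExpr (19054), scaled by TMM and tested in edgeR 4.0.16 (R 4.3.3) by the quasi-likelihood test on a model of run plus culture, with 5 residual degrees of freedom and p-values adjusted over all genes (Benjamini-Hochberg, threshold 0.05). As run 1 held only fresh cells, the culture term sets cultured against run-2 fresh libraries, and run-1 libraries add to the spread. Any comparison of cultured with run-1 fresh libraries differs in run as well as in culture, and these cannot be told apart in it. Each standard error is the fold change divided by the root of its F statistic. Log2 CPM for likeness used a prior count of 2. A gene at 0 in a group is set against 3 counts over that group. Intervals are exact Poisson, and these and the floor cover counting error only, as the labels mention no molecular identifiers.

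Groups and runs came from the labels. Every pair of libraries differed by more than sampling noise. Alternatives were DESeq2 1.42.0 (its size factors and its Wald test), no scaling, no filter, unrounded counts, no run term, each run's fresh libraries alone, a replicate block and leaving out each library. Coordinates are from GENCODE M21 and sequences from RefSeq (GRCm38.p6), where 4 of the 5 members had a promoter entry. Named genes are the members, all listed ligands and accessory genes, in every other list the called genes of at least 5 CPM with the highest absolute fold change (no more than 4), and per member the 3 genes with the highest Pearson r. Others are marked where they stand. The members and lists were chosen with earlier results of these data known.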

Additional observations from a re-analysis of the deposited data

Results flagged for a closer look

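Among the 5 fresh libraries, 3 of 47 genes checked had 1 library far from the other four, where chance alone marks about 1 in 20 groups. Calca stood at 3.29 CPM in fresh replicate 4 and at 0.456 to 1.14 CPM in the others. Notch3 stood at 537 CPM in fresh replicate 2 and at 319 to 368 CPM in the others. Tead4 stood at 1.94 CPM in fresh replicate 2 and at 0 to 0.513 CPM in the others. None of the 5 members was among them.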

How the results depend on the processing

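Calcr kept its direction and its call in all 17 alternatives. Calcrl lost its call in run 2 alone at the same fold change (-5.02, adjusted p = 0.111), and leaving out 1 library gave -7.86 to -4.38, with adjusted p of 0.00264 to 0.101. Ramp2 lost its call with no scaling (-1.98), no filter (-2.28), run 2 alone (-2.30) and run-1 fresh libraries (-1.74), and leaving out 1 library gave -3.15 to -1.97. Ramp1 gained one against run-1 fresh libraries (-7.41), a comparison that also differs in run. The run difference of Calcrl, which was not called, turned negative without scaling (-0.27) and ran from -0.25 to 0.41 with 1 library left out. The number of genes called in culture (5122) was 1861 in run 2 alone and 3398 to 6237 with 1 library left out, lowest without fresh replicate 5. The number called between runs (36) was 81 without the filter, 921 with DESeq2's Wald test and 1 to 34 with 1 library left out, where fresh replicates 1, 2, 4 and 5 each moved it beyond 1.5 times (17, 16, 3 and 1). That of pathway genes (33) was 14 in run 2 alone and 21 to 43 with 1 library left out, lowest without fresh replicate 5. The cause of these shifts was not tested. Where an arm of run-2 fresh cells was left with 1 library, it was assumed to vary like the others. Of 714 alternative values for 42 other named genes, 615 kept their direction and side of the threshold, 65 lost and 19 gained a call, and 15 reversed, all of genes not called in the main test: Prkaca without the run term (-0.13), against run-1 fresh libraries (-0.31) and with 1 library left out (-0.24 to 1.06), Arrb2 (0.19) and Adcyap1r1 (0.32) without scaling, and with 1 library left out Arrb2 (-0.84 to 0.32), Adcyap1r1 (-0.61 to 0.73), Col5a2 (-0.23 to 0.32) and Notch1 (-1.65 to 0.61).

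Fresh and cultured libraries share the numbers 1 to 3. Deviations of same-numbered libraries correlated by 0.01 to 0.03, and those of the other pairs by -0.02 to 0.01. From 3 libraries per group in different runs, these values cannot decide whether the numbers pair libraries. The labels name no animal or culture per library, so the main test used no pairing. The replicate block called 2719 genes, left Calcr (-6.59, adjusted p = 0.0241) and Calcrl (-6.50, adjusted p = 0.0393) called and Ramp2 not (-1.91, adjusted p = 0.117). It sets cultured against run-1 fresh libraries, and under it Prkaca (-1.27) and Notch1 (-0.32) turned negative. The block also ended the calls of Calca (adjusted p = 0.0716), Crcp (0.0974), Gng11 (0.0606), Gnb1 (0.0693), Stk4 (0.0590), Tead4 (1.58, 0.528), Vipr2 (0.111), Vipr1 (0.0693), Pth1r (0.0695), Grk4 (0.0935) and Rapgef3 (0.0693). At this depth Ramp1 and Ramp3 lay near the floor of 3 counts, and differences below it were not detectable.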
